A study of Mus musculus with 6 samples.

Results

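The genes described here are 10 markers of astrocytes (Gfap, Aqp4, Slc1a2, Slc1a3, Aldh1l1, Gja1, Gjb6, Glul, S100b and Sox9), taken by symbol from the deposited table of 45777 genes. All 10 were found, and all 10 passed the filter on low counts that left 17874 genes for testing. RNA came from the striatum of 6-week-old ICR mice, an outbred strain. Their fathers were ICR males that, from 6 weeks of age, had been given subcutaneous injections on 21 consecutive days, either methylphenidate at 15 mg/kg or saline at 10 mL/kg, and were then paired with females that received no drug. The offspring themselves were not treated, so the contrast is one of paternal exposure. Each group had 3 offspring, 2 female and 1 male by the labels, and the sources used here do not give the number of sires or litters. The p-values therefore measure only the spread between these animals, some of which may be littermates. Libraries are named by group and by the animal number in the column header (saline-sired 3, 4 and 5, methylphenidate-sired 2, 4 and 6), since no label ties a column to a particular labelled animal or sex. Values by library are always listed in that order, and "with saline sires" and "with methylphenidate sires" stand for the offspring groups.

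Astrocytes clear glutamate from the synapse, convert it to glutamine, buffer potassium and water, and are joined to each other by gap junctions. In the striatum their processes surround the synapses that cortical, thalamic and dopaminergic axons make on medium spiny neurons. Bulk RNA holds all these cells together, and in it fewer astrocytes and less RNA per astrocyte cannot be told apart.

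None of the 10 astrocyte genes differed between the groups past the test. In the quasi-likelihood test of edgeR, 0 of 10 had a Benjamini-Hochberg adjusted p under 0.05 over all genes, where 0.0224% of genes did. At an unadjusted p under 0.05 there were also 0 of 10, against 9.02% of all genes (5.07% higher and 3.95% lower). DESeq2 and limma-voom called 0 of 10 as well, with 1 (Gfap) and 0 at an unadjusted p under 0.05. For each of the 10 the values of the groups overlapped, against a share of 14.8% of all genes without overlap (7.84% higher and 7.01% lower). The median log2 fold change of the 10, methylphenidate-sired minus saline-sired, was 0.0086 (all genes: -0.012). Without regard to sign the median was 0.019, where it was 0.078 over the 7182 genes at or above the level of the lowest member and 0.12 over all genes tested. The spread inside the groups was not small. Its median (SD of log2 CPM) was 0.16 for the 10 genes and 0.094 for the 7182 genes of like or higher level.

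**Figure D1:**
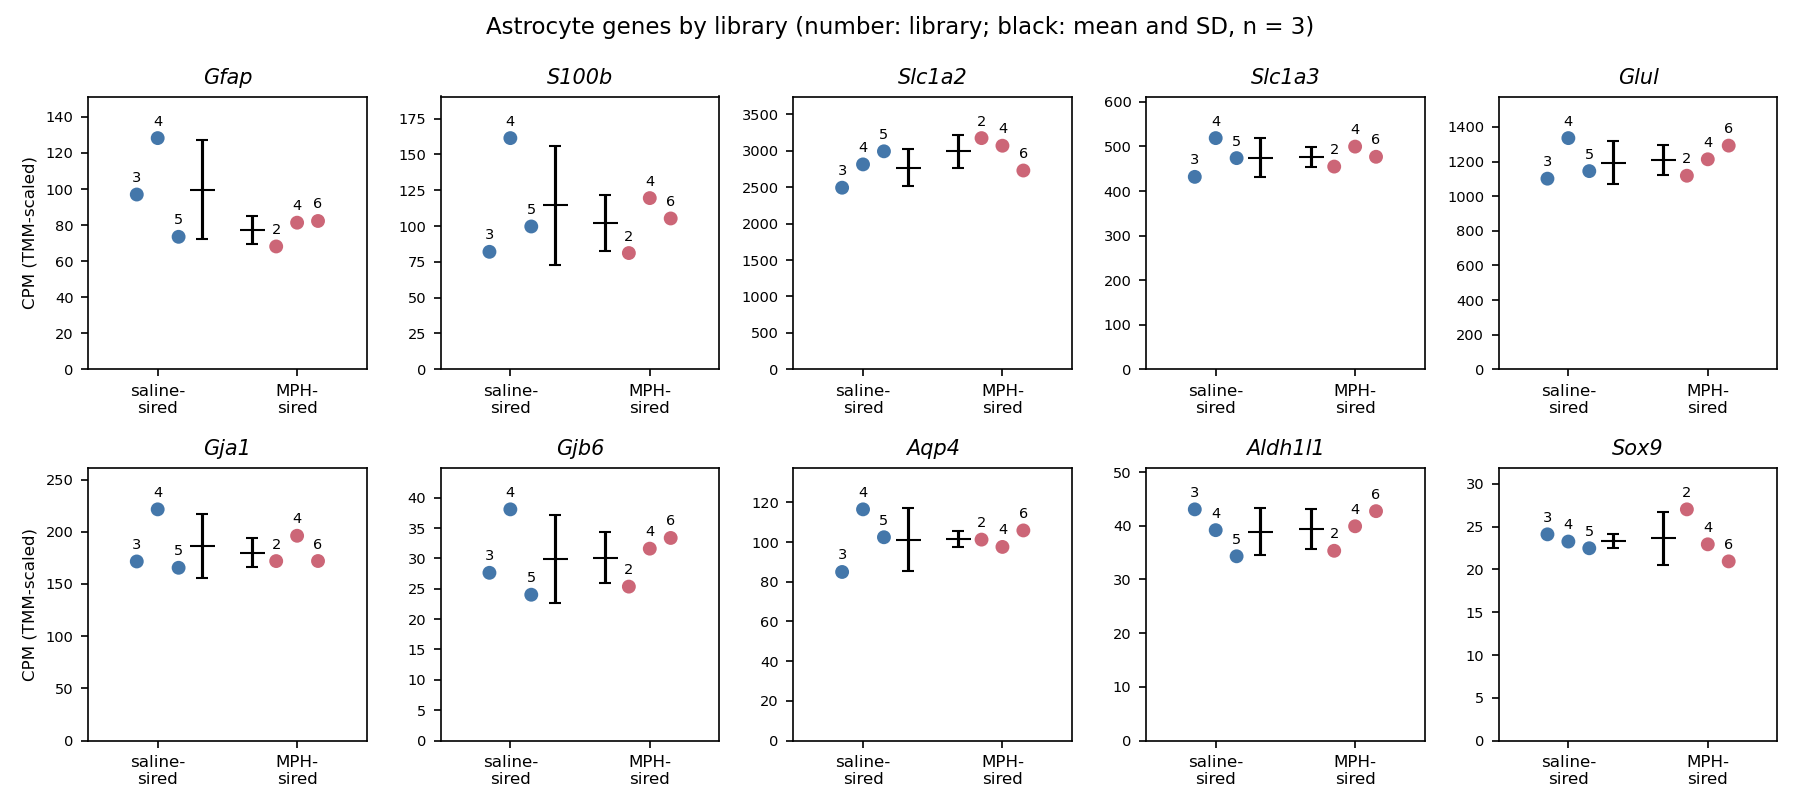
Level of each astrocyte gene in each library, as TMM-scaled CPM (vertical axes from 0), for the saline-sired (blue) and methylphenidate-sired (MPH-sired, red) groups. Numbers name the libraries, and black marks give the mean and SD (n = 3 per group). The groups overlap in all 10 panels, and saline-sired library 4 is the highest point for 7 of the 10 genes.

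The 10 genes differed more in level than any of them differed between libraries. Compared as CPM (TMM-scaled reads relative to library size) per kilobase of exon, with mean and SD over the 6 libraries, Glul was the most abundant, at 361 ± 29.0, followed by Slc1a2 at 219 ± 19.0. S100b was at 72.9 ± 20.1 and Slc1a3 at 55.8 ± 3.63, and the ranges of these neighbours overlapped. Next came Gfap at 21.0 ± 5.17, Gja1 at 17.8 ± 2.11, Aqp4 at 16.3 ± 1.66, Gjb6 at 11.2 ± 1.99 and Aldh1l1 at 8.66 ± 0.807, each overlapping its neighbour in this order. Sox9 was the lowest, at 5.67 ± 0.493, below every library of Aldh1l1. The fewest reads behind any member in any library were 701 (Sox9) and the most 104304 (Slc1a2).

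The members also differed in how steady they were. From the lowest to the highest library S100b differed by 1.99-fold and Gfap by 1.88-fold. At the other end were Slc1a3 at 1.20-fold and Glul at 1.21-fold. The other 6 lay between 1.25-fold (Aldh1l1) and 1.59-fold (Gjb6). The sequences before the starts of these most and least variable members are printed below, as RefSeq gives them on GRCm38.p6 (the assembly that mm10 names), each the 250 bases upstream of the annotated start, 5′ to 3′ on the gene's strand. Of the members, 8 of 10 matched the RefSeq promoter table. For Slc1a3 the bases just after that start were not found in its GENCODE vM21 transcripts, which leaves its start less certain. They were found for S100b, Gfap and Glul.
S100b, chr10:76253586-76253835, plus strand: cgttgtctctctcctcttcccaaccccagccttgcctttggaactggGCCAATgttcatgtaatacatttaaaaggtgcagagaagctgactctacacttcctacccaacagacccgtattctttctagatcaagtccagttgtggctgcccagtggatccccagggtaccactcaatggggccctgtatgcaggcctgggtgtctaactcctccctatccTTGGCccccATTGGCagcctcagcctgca
Gfap, chr11:102897201-102897450, minus strand: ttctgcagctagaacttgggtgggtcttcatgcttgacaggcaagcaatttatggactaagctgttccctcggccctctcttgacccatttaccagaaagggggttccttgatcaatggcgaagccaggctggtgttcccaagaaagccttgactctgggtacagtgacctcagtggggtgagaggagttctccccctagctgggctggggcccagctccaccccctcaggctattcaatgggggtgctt
Slc1a3, chr15:8710808-8711057, minus strand: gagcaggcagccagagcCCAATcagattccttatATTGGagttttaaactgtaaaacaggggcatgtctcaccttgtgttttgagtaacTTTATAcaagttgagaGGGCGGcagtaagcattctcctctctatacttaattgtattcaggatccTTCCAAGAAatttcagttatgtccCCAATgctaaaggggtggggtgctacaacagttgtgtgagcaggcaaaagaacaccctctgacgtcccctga
Glul, chr1:153899679-153899928, plus strand: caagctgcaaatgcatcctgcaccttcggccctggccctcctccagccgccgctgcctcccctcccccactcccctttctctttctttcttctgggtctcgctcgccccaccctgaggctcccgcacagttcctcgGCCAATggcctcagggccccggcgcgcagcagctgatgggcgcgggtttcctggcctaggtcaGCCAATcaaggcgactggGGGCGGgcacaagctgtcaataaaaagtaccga
Capitals mark matches, on either strand, to any of 5 promoter motifs. These were the TATA box searched as TATAAA, the CCAAT box as CCAAT, the GC box as GGGCGG, an element of nuclear factor I (NFI) sites as TTGGC, and a STAT element as TTCNNNGAA. The CCAAT box and the NFI element can share bases where a G stands before CCAAT. The sequence before Gfap held none of the 5. The one before S100b held 2 CCAAT boxes and 3 NFI elements, and the one before Glul held 2 CCAAT boxes, 2 NFI elements and 1 GC box. Upstream of Slc1a3 there were 3 CCAAT boxes and 1 each of the TATA box, the GC box and the STAT element. Of the 32851 promoters in the table, 12.4% held the TATA box letters in the same 250 bases, 33.9% those of the CCAAT box, 32.7% those of the GC box, 41.5% those of the NFI element and 7.02% those of the STAT element. GC content was 53.6% for S100b, 55.6% for Gfap, 44.8% for Slc1a3 and 64.8% for Glul, with a median of 52.4% over all promoters. Gfap and S100b thus differed in their matches, and a link between these motifs and the spread between libraries was not tested.

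Of the proteins that mark the astrocyte's shape and calcium handling, Gfap (Gene ID 14580, chromosome 11, 102887336 to 102897200 in mm10) encodes the main intermediate filament. Gfap was at 96.9, 128 and 73.5 CPM with saline sires and at 68.1, 81.3 and 82.3 with methylphenidate sires. Saline-sired libraries 3 and 4 were above every methylphenidate-sired library, and saline-sired library 5 lay among them. Its log2 fold change was -0.37 (SE 0.18, 95% interval -0.78 to 0.044, edgeR adjusted p = 0.591), which was the largest in size among the 10. As a ratio that is 0.776, with an interval from 0.584 to 1.03. It was -0.14 when saline-sired library 4 was left out. Leaving out saline-sired library 5 gave -0.53 (edgeR adjusted p = 0.151). Without saline-sired libraries 3 and 4 together the log2 fold change was 0.072. These hold the 2 highest Gfap values, and leaving them out leaves 1 saline-sired animal. Gfap is also made by ependymal cells and by stem cells of the ventricle wall. The summed markers of ependyma were at 24.3, 13.7 and 12.4 CPM with saline sires and at 11.3, 10.7 and 11.6 with methylphenidate sires. Those of ventricle wall stem cells and neuroblasts were at 112, 84.9 and 95.5 CPM with saline sires. With methylphenidate sires they were at 90.8, 91.8 and 85.2. The part of these cells in the level of Gfap was not tested.

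S100b (Gene ID 20203, chromosome 10, 76253836 to 76261319), a calcium-binding protein of astrocytes that mature oligodendrocytes also make, was at 82.0, 161 and 99.7 CPM with saline sires and at 81.2, 120 and 105 with methylphenidate sires. Saline-sired library 4 stood above all others. The log2 fold change was -0.16 (SE 0.24, interval -0.71 to 0.38, edgeR adjusted p = 0.867), with the widest interval of the 10. Leaving out saline-sired library 4 gave 0.17 and leaving out library 3 of that group gave -0.36, so the sign rested on single animals. Summed markers of oligodendrocytes were at 9500, 13634 and 7276 CPM with saline sires and at 7392, 9672 and 10019 with methylphenidate sires, highest in the same library as S100b. Their part in the level of S100b was not tested.

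Slc1a2 (Gene ID 20511, chromosome 2, 102658239 to 102790784) encodes GLT-1, the transporter that takes up most synaptic glutamate in the forebrain. Slc1a2 was at 2494, 2814 and 2994 CPM with saline sires and at 3175, 3071 and 2730 with methylphenidate sires. The highest values were those of methylphenidate-sired libraries 2 and 4, and methylphenidate-sired library 6 lay below saline-sired libraries 4 and 5. Its log2 fold change was 0.11 (SE 0.087, interval -0.085 to 0.31, edgeR adjusted p = 0.732). This was the largest positive value among the members. It stayed positive, between 0.043 and 0.18, when any 1 library was left out. The value was -0.00087 without saline-sired libraries 3 and 4 together, which leaves 1 saline-sired animal.

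Slc1a3 (Gene ID 20512, chromosome 15, 8634124 to 8710807), which encodes the second astrocyte glutamate transporter, GLAST, had the narrowest range. It was at 432, 519 and 474 CPM with saline sires and at 455, 500 and 477 with methylphenidate sires. The log2 fold change was 0.0071 (SE 0.08, interval -0.18 to 0.19, edgeR adjusted p = 0.988), which as a ratio is an interval from 0.886 to 1.14. Per kilobase of exon, Slc1a2 exceeded Slc1a3 by a ratio of 3.75, 3.53 and 4.11 with saline sires and 4.54, 3.99 and 3.72 with methylphenidate sires, with overlap between the groups.

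Glul (Gene ID 14645, chromosome 1, 153899929 to 153909723) encodes glutamine synthetase, which turns the glutamate taken up into glutamine. It was at 1101, 1336 and 1145 CPM with saline sires and at 1118, 1213 and 1292 with methylphenidate sires. Both groups spanned nearly the same values, and the log2 fold change was 0.017 (SE 0.09, interval -0.19 to 0.22, edgeR adjusted p = 0.975). Glns-ps1, a pseudogene not analysed here, matches the Glul transcript at 96.8% identity over 1126 nucleotides, and the sources used here do not say how reads matching several places were counted.

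Of the channels, Gja1 (Gene ID 14609, chromosome 10, 56377300 to 56390419) encodes connexin 43, the main gap junction protein of astrocytes, and Gjb6 (Gene ID 14623, chromosome 14, 57123301 to 57133611) encodes connexin 30, its partner. Gja1 was at 172, 221 and 165 CPM with saline sires and at 172, 196 and 172 with methylphenidate sires. Library 4 of either group was its highest, and the other 4 libraries lay between 165 and 172 CPM. Gjb6 was at 27.6, 38.1 and 24.0 CPM with saline sires and at 25.4, 31.6 and 33.4 with methylphenidate sires. Saline-sired library 4 was again the highest, and saline-sired library 5 the lowest. Their log2 fold changes were -0.048 (SE 0.11, edgeR adjusted p = 0.930) and 0.01 (SE 0.17, edgeR adjusted p = 0.991). Aqp4 (Gene ID 11829, chromosome 18, 15389394 to 15410982), the water channel of the endfeet on blood vessels, was at 84.9, 116 and 102 CPM with saline sires. In the methylphenidate-sired libraries Aqp4 was at 101, 97.6 and 106 CPM, all inside the saline-sired range, and its log2 fold change was 0.0045 (SE 0.11, interval -0.24 to 0.25, edgeR adjusted p = 0.994).

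Aldh1l1 (Gene ID 107747, chromosome 6, 90550768 to 90599171), an enzyme of folate metabolism whose promoter is widely used to label astrocytes, was at 43.1, 39.2 and 34.3 CPM with saline sires and at 35.3, 39.9 and 42.7 with methylphenidate sires. Its highest library was saline-sired 3, where 7 of the 10 members were below their own mean, and the log2 fold change was 0.017 (SE 0.11, edgeR adjusted p = 0.979). The antisense gene Gm15756 covers 499 exon bases of Aldh1l1, and strand use in counting is not given, which leaves the Aldh1l1 count uncertain. Sox9 (Gene ID 20682, chromosome 11, 112782210 to 112787757), a transcription factor that specifies glia and stays on in astrocytes, was at 24.1, 23.3 and 22.5 CPM with saline sires and at 27.0, 22.9 and 20.9 with methylphenidate sires. The methylphenidate-sired libraries held both its highest and its lowest value, and the log2 fold change was 0.021 (SE 0.11, interval -0.22 to 0.26, edgeR adjusted p = 0.972). For 6 of the members (Aqp4, Slc1a3, Aldh1l1, Gjb6, Glul and Sox9) the log2 fold change was between 0.0045 and 0.021, and it was negative when libraries were scaled by total counts alone. No direction can be read for them.

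**Figure D2:**
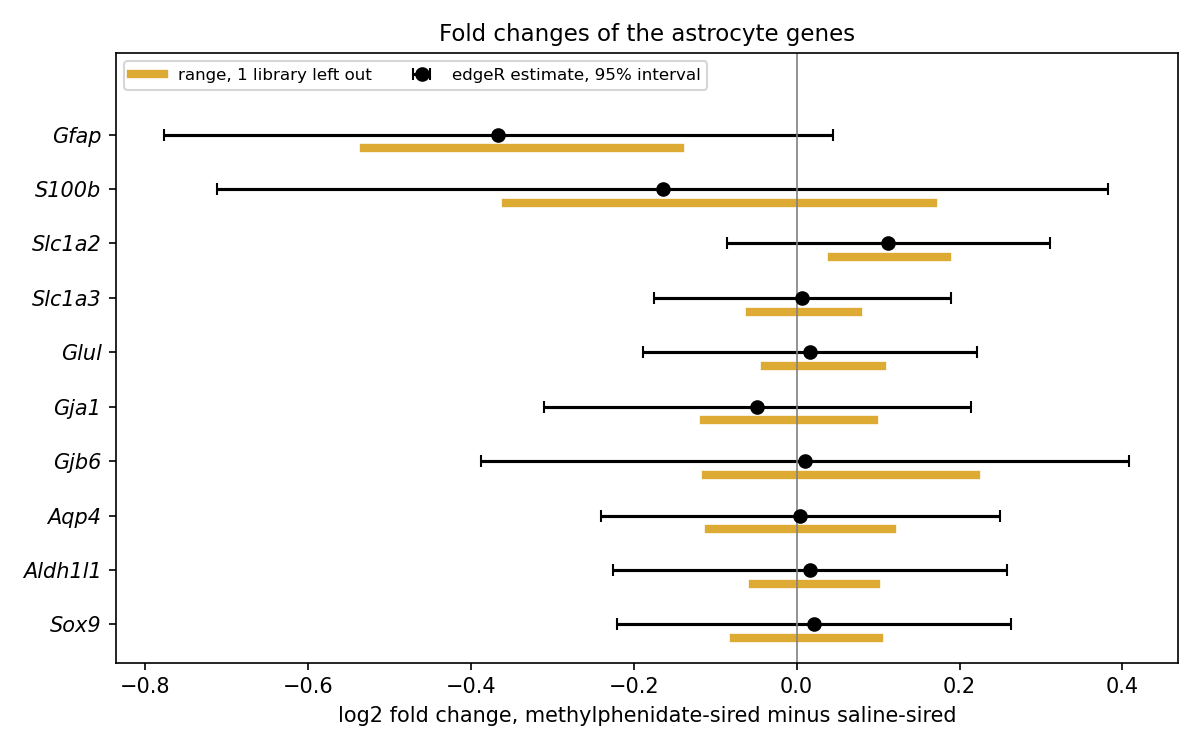
Log2 fold change of each astrocyte gene, methylphenidate-sired minus saline-sired (horizontal axis), with the 95% interval of the edgeR fit (black) and the range of estimates when each of the 6 libraries is left out in turn (yellow). Every interval includes 0, and only the ranges of Gfap and Slc1a2 stay on 1 side of it.

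Across the members 1 library stood apart more than the groups did. Saline-sired library 4 was the highest for 7 of 10 (Gfap, S100b, Slc1a3, Glul, Gja1, Gjb6 and Aqp4) and the lowest for 0. Of all genes tested, 20.3% were highest in that library. Relative to each gene's own mean over the 6 libraries, the mean log2 CPM of the 10 was 0.23 in saline-sired library 4, against -0.09 and -0.098 in the other saline-sired libraries. It was -0.097, 0.044 and 0.011 with methylphenidate sires. Slc1a2, Aldh1l1 and Sox9 did not share this peak, at -0.029, 0.0089 and -0.008 in saline-sired library 4. Leaving that library out moved the median log2 fold change of the 10 to 0.10, and 0 of 10 passed the test.

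Markers of other cells moved with that library too. Saline-sired library 4 held the highest summed level of markers of oligodendrocytes, of oligodendrocyte precursors (408 CPM against 305 to 357 elsewhere), of microglia (366 against 315 to 363) and of medium spiny neurons (8657 against 6874 to 8619). It held the lowest level of cortical excitatory neuron markers, at 330 CPM against 593 and 768 in the other saline-sired libraries and 928 to 1095 with methylphenidate sires. All 10 markers of medium spiny neurons, the defining cells of the striatum, were detected in every library. Their summed level did not overlap between the groups, at 7993 to 8657 CPM with saline sires and 6874 to 7689 with methylphenidate sires. All 10 had negative log2 fold changes (median -0.20), 7 at an unadjusted p under 0.05 (all genes: 3.95% lower) and 8 without overlap (all genes: 7.01% lower). In the edgeR test 0 of these passed (smallest adjusted p 0.420), and DESeq2 called 2. The 7 cortical excitatory neuron markers all had positive log2 fold changes (median 0.88). Of them 6 had an unadjusted p under 0.05 (all genes: 5.07% higher) and 6 did not overlap (all genes: 7.84% higher). In the edgeR test 0 of the 7 passed, and DESeq2 called 2. Markers of choroid plexus, the epithelium that makes cerebrospinal fluid, were at 2077, 363 and 30.3 CPM with saline sires and at 36.5 to 85.1 with methylphenidate sires. All 8 had negative log2 fold changes (median -3.47), 7 at an unadjusted p under 0.05 (all genes: 3.95% lower) and 0 without overlap. All 7 ependyma markers were also negative (median -0.60), 3 at an unadjusted p under 0.05 and 1 without overlap. In the edgeR test 0 genes of either list passed. Meningeal and fibroblast markers were at 159, 86.0 and 41.2 CPM with saline sires and at 42.8 to 56.8 in the others, and those of endothelium lay between 171 and 220 CPM. None of the 12 marker lists had a gene at 0 in every library. The part of these cells in the levels of the astrocyte genes was not tested. Transcripts of 4 Y-linked genes summed to 180 CPM in saline-sired library 4 and to 176 in methylphenidate-sired library 4, and to at most 0.213 in the other 4. These 2 libraries were the highest of their own groups for S100b, Gja1 and Slc1a3, which is 3 of 10 members, against 10.6% of all genes tested. The Y-linked genes and this count were chosen after values had been seen. With a term in the edgeR model for the 2 libraries that hold Y-linked transcripts, also added after seeing the data, 0 of 10 members passed the test and their median log2 fold change was 0.014. Gfap was then at -0.34 (edgeR adjusted p = 0.538) and S100b at -0.12 (edgeR adjusted p = 0.832).

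**Figure D3:**
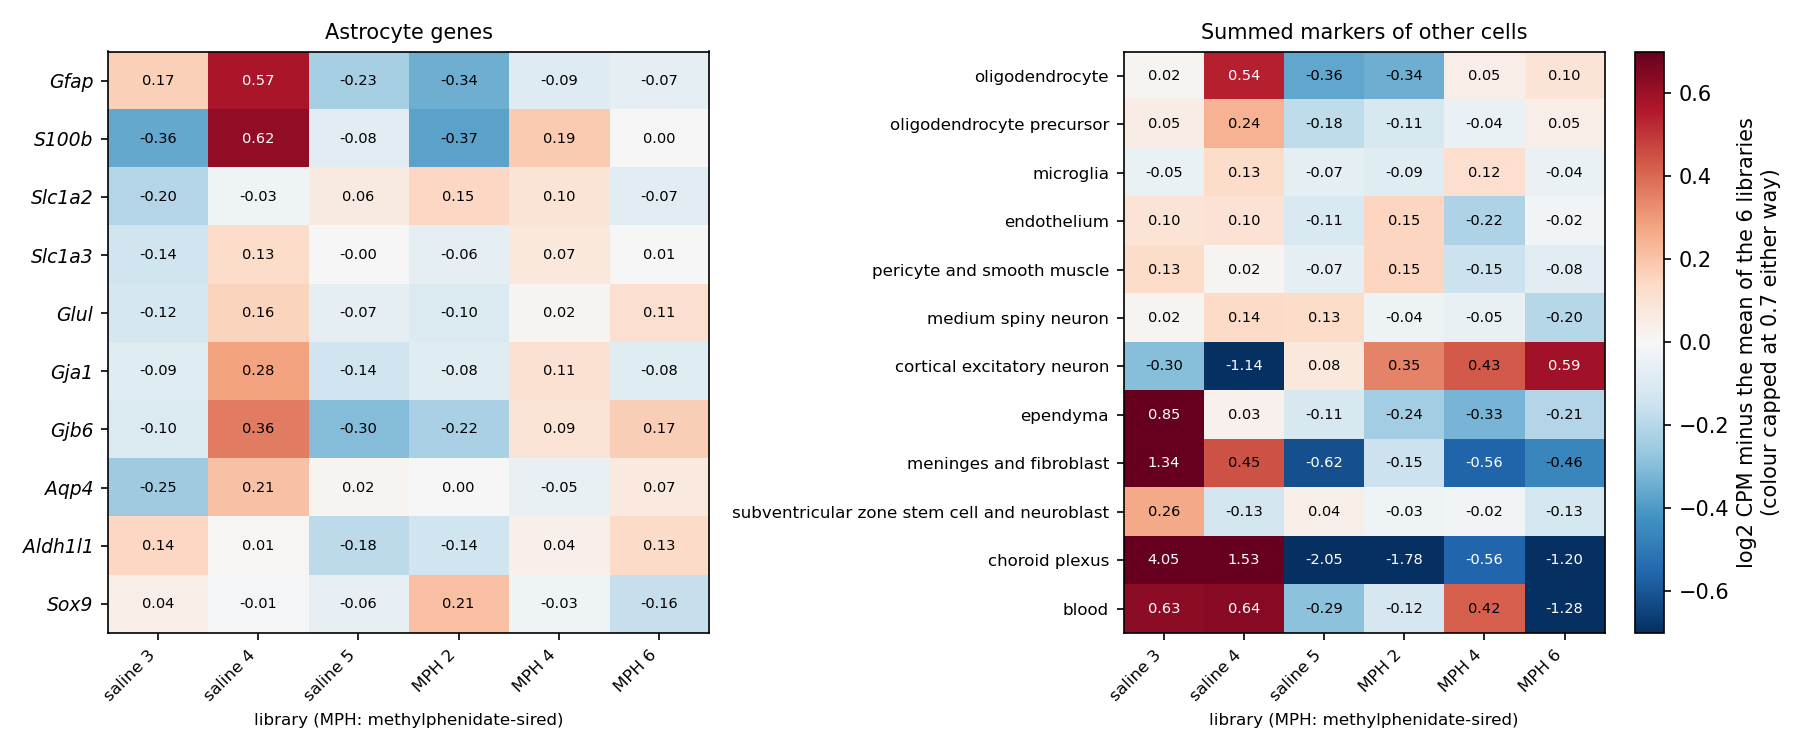
Heat maps of log2 CPM minus the mean of the 6 libraries, for each astrocyte gene (left) and for the summed markers of 12 other cell types (right), with libraries in columns and the colour capped at 0.7 in either direction. Saline-sired library 4 is the highest column for 7 of the 10 astrocyte genes and for oligodendrocyte, precursor, microglial and medium spiny neuron markers, and the lowest for cortical excitatory neuron markers.

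The 5 genes outside the members whose log2 CPM was most like the mean of the 10 over the 6 libraries were Stxbp3 (Pearson r 0.992), which binds syntaxins in vesicle fusion, the protein kinase gene Ick (0.989), the mitochondrial ribosomal protein gene Mrps5 (0.988), the co-chaperone gene Ptges3 (0.988) and the protein kinase gene Hipk2 (0.987). They were picked from 10696 genes with a mean log2 CPM of at least 3, so high values were sought out, and all 5 shared the peak in saline-sired library 4. Without that library r was between 0.949 and 0.980. Stxbp3 had 27.9 CPM in saline-sired library 4 and 18.8 to 22.5 in the other 5.

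Further genes of astrocyte pathways were followed in 14 lists, which hold 140 genes outside the 10, of which 133 passed the filter. None of these passed the edgeR test (smallest adjusted p 0.470), and DESeq2 called 0. DESeq2 gave no adjusted p, and so could make no call, for 5 tested genes of the reactive set linked to ischaemia. The same held for 2 of the reactive set linked to inflammation and 1 S100 gene. At an unadjusted p under 0.05 there were 15 (6 higher and 9 lower), which is 11.3% against 9.02% of all genes. In another count of 15 (6 higher and 9 lower) the groups did not overlap, 11.3% against 14.8% of all genes. Of the 133, 88 had a negative log2 fold change, where 53.0% of all genes did, and their median was -0.064. The median was negative in 11 of the 14 lists with all libraries and in 7 of 14 without saline-sired library 4. It was negative in 2 of 14 without saline-sired libraries 3 and 4, the pair highest in choroid plexus markers, which leaves 1 saline-sired animal. Counts and medians given for a single list include any of the 10 members that it holds.

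Among 30 further genes enriched in astrocytes, 22 were negative (median log2 fold change -0.066), 0 passed the edgeR test and 1 had an unadjusted p under 0.05. That gene was Ntsr2, a neurotensin receptor gene of astrocytes, at 87.4, 91.9 and 97.1 CPM with saline sires and 77.0, 77.8 and 88.9 with methylphenidate sires (log2 fold change -0.18, SE 0.076, edgeR adjusted p = 0.526). Chrdl1, a secreted antagonist of bone morphogenetic proteins, had 0.36 (SE 0.19). Saline-sired library 4 was the highest for 19 of these 30, and without it their median was 0.054. Leaving out methylphenidate-sired library 2 gave 0.012, and leaving out library 4 of that group gave -0.12. Chrdl1 ranged from 0.21 without saline-sired library 3 to 0.61 without saline-sired library 5.

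Of the 12 genes of the glutamate-glutamine cycle, 8 were positive and 4 negative, with 0 past the test and 0 at an unadjusted p under 0.05 (median 0.014). Slc38a3, a glutamine transporter gene of astrocytes, was at 76.4, 69.0 and 61.0 CPM with saline sires and at 60.2, 62.4 and 63.5 with methylphenidate sires (-0.15, SE 0.087). Of 10 connexins and pannexins, 8 were negative (median -0.10), with 0 past the test. Gjb2, the gene of connexin 26, had -0.28 (SE 0.23) at no more than 2.61 CPM. Without saline-sired library 4 the median of the connexins was -0.012 and Gjb2 had -0.15, and without saline-sired library 3 Slc38a3 had -0.067.

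In the complex that anchors Aqp4 to the endfoot, 5 of 10 genes were positive and 5 negative. Dmd, the dystrophin gene, was at 43.6, 46.1 and 54.2 CPM with saline sires and at 56.2, 55.6 and 56.2 with methylphenidate sires. The groups did not overlap (all genes: 7.84% higher), and the gene, at 0.22 (SE 0.088, edgeR adjusted p = 0.502), did not pass the test. Kcnj10, the potassium channel gene Kir4.1, had 0.12 (SE 0.10). Among 8 ion handling genes 3 were positive, with Fxyd1, a regulator of the sodium pump, at -0.38 (SE 0.18) and the chloride cotransporter gene Slc12a2 at -0.19 (SE 0.14). Single libraries carried much of these values: Kcnj10 had 0.014 without methylphenidate-sired library 6, Fxyd1 -0.17 without saline-sired library 3 and Slc12a2 -0.026 without saline-sired library 4.

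Genes of transmitter uptake and breakdown had the most negative median of the 14 lists (-0.21), with 7 of 8 negative and 0 past the test. Of these, 1 was lower at an unadjusted p under 0.05 (all genes: 3.95%) and without overlap (all genes: 7.01%). Slc22a3, a transporter of monoamines, was at 9.94, 8.85 and 8.24 CPM with saline sires and at 8.98, 5.73 and 6.60 with methylphenidate sires, with overlap (-0.34, SE 0.18). Without saline-sired libraries 3 and 4 the median of this list was 0.057, and it was -0.10 without saline-sired library 3 alone and -0.12 without methylphenidate-sired library 2.

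Regulators of glial fate held 6 of 17 genes at an unadjusted p under 0.05, 3 in each direction (all genes: 5.07% higher and 3.95% lower), with 0 past the test and a median of 0.021. Nfib, a nuclear factor I gene that drives astrocyte formation, was at 50.7, 50.7 and 50.4 CPM with saline sires and at 57.0, 55.3 and 68.1 with methylphenidate sires (0.25, SE 0.087, edgeR adjusted p = 0.470), and had 0.15 without methylphenidate-sired library 6. Id4, an inhibitor of bHLH factors, was at 154, 195 and 177 CPM with saline sires and at 156, 144 and 140 with methylphenidate sires (-0.26, SE 0.091, edgeR adjusted p = 0.475). Nfib did not overlap between the groups (all genes: 7.84% higher) and Id4 did. Of 10 genes of folate and serine-glycine metabolism, the pathway of Aldh1l1, 8 were negative (median -0.12). Psph, which makes serine, had -0.28 (SE 0.11) and Shmt1 had -0.43 (SE 0.20), both without overlap between the groups (all genes: 7.01% lower).

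Beside Gfap, the intermediate filament gene Synm (synemin) was at 36.0, 34.4 and 29.1 CPM with saline sires and at 37.1, 39.9 and 40.8 with methylphenidate sires (0.24, SE 0.094, edgeR adjusted p = 0.498). Vim (vimentin) had the opposite sign, -0.29 (SE 0.22), and was highest in saline-sired libraries 3 and 4, as Gfap was. Of the 5 filament genes 1 was positive and 4 negative, with 0 past the test. Of 7 S100 genes 6 were negative (median -0.14). S100a6 had -0.34 (SE 0.15) and S100a16 -0.12 (SE 0.074), both without overlap (all genes: 7.01% lower). Of 10 genes of lactate, glucose and glycogen handling 7 were negative, with Ldhb, a lactate dehydrogenase gene, at -0.21 (SE 0.08) and the lactate transporter gene Slc16a3 at -0.28 (SE 0.20). Vim had -0.10 without saline-sired library 3 and Slc16a3 -0.13 without methylphenidate-sired library 4. The median of the S100 genes ranged from -0.24 without saline-sired library 5 to -0.053 without methylphenidate-sired library 2.

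Genes that astrocytes switch on when reactive gave no common direction. In the general set 9 of 13 passed the filter, 5 positive and 4 negative (median 0.011), and Lcn2, Steap4, Timp1 and Cxcl10 did not pass it, with at most 12 counts in any library. Serpina3n, a protease inhibitor, was at 16.2, 15.7 and 17.2 CPM with saline sires and at 18.3, 22.5 and 19.5 with methylphenidate sires, with no overlap (all genes: 7.84% higher). Its log2 fold change was 0.30 (SE 0.10, edgeR adjusted p = 0.474). Gfap, of the same set, had the opposite sign, as did the heat shock gene Hspb1 (-0.64, SE 0.30), which was at 6.22, 7.50 and 3.05 CPM with saline sires and at 3.32 to 3.88 in the others. In the set linked to inflammation 8 of 11 were negative (median -0.078). Gbp2, an interferon-induced GTPase, was at 5.36, 2.98 and 2.47 CPM with saline sires and at 2.31, 1.10 and 1.63 with methylphenidate sires (-1.11, SE 0.37, edgeR adjusted p = 0.470), and when saline-sired library 3 was left out it had -0.70. Psmb8, an immunoproteasome gene, had -0.83 (SE 0.41). In the set linked to ischaemia 9 of 12 passed the filter and 5 were negative (median -0.14). Ptgs2 was at 0.51 (SE 0.26) and Tm4sf1 at -0.34 (SE 0.21). In each of the 3 sets 0 genes passed the test. Without saline-sired library 3, Psmb8 had -0.45 and Tm4sf1 -0.081, and without saline-sired library 4, Hspb1 had -0.37 and Ptgs2 0.31. Over the fits with 1 library left out, the median of the general set lay between -0.14 (methylphenidate-sired library 6) and 0.048 (methylphenidate-sired library 4). That of the inflammation set lay between -0.26 and -0.019 for the same 2 libraries. For the ischaemia set it was between -0.097 (methylphenidate-sired library 4) and 0.073 (saline-sired library 4), a range that does not hold the -0.14 from all libraries.

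**Figure D4:**
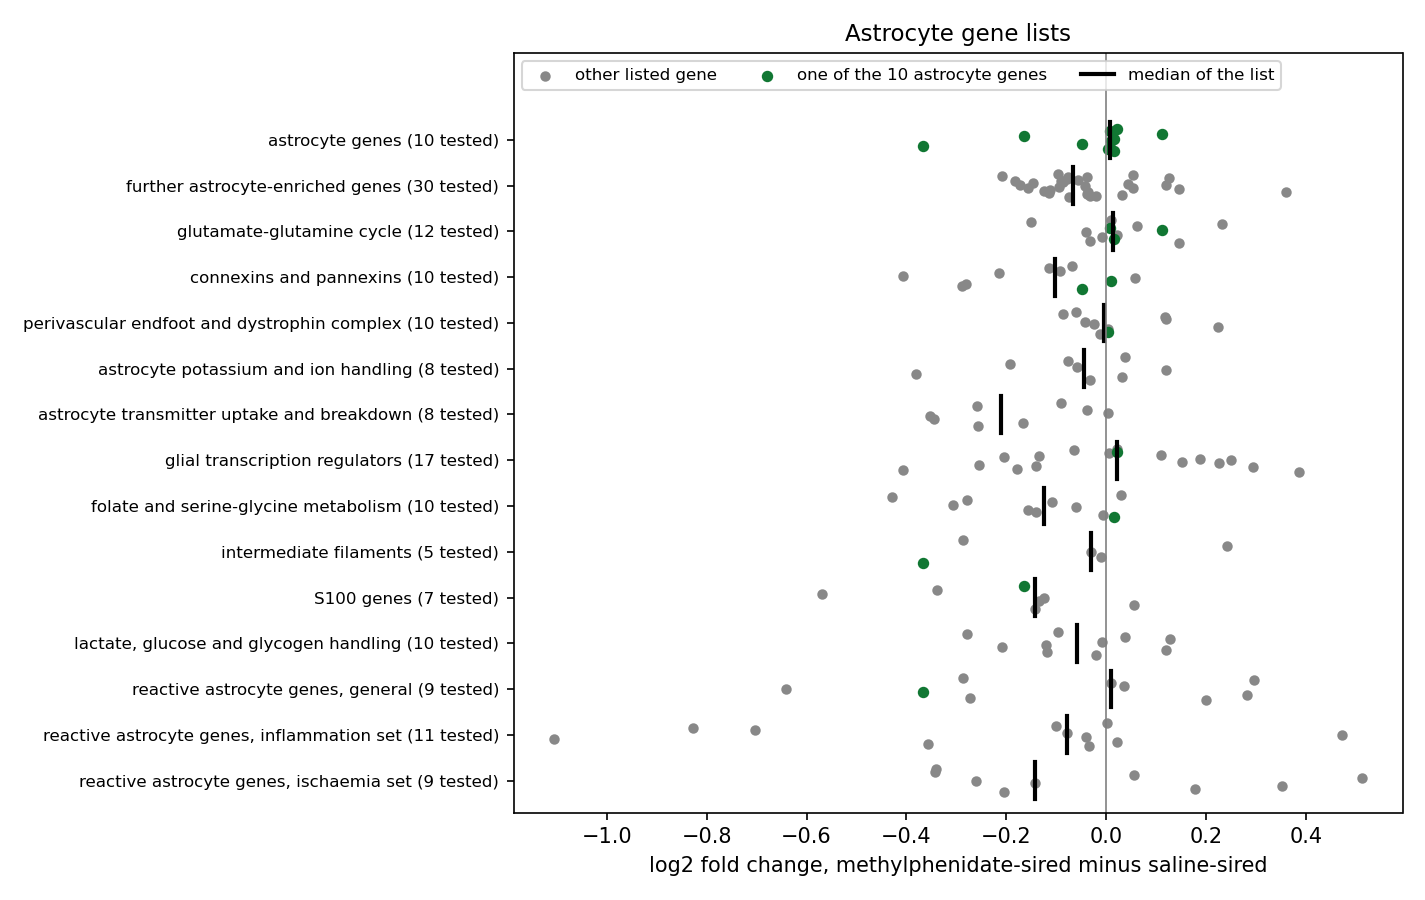
Log2 fold change, methylphenidate-sired minus saline-sired (horizontal axis), of every tested gene in the 10 astrocyte genes and the 14 pathway lists (rows, with the number tested), with members in green, other genes in grey and the median of each list as a black bar. Medians lie between -0.21 and 0.021, and no gene shown passed the edgeR test.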

How the data were processed

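Striatal RNA was sequenced in 6 offspring, 3 per group. Tools named in the submitters' processing notes are bcl2fastq 2.20.0, Trimmomatic, HISAT2 2.1.0 and StringTie 2.1.3b, with the build mm10. The sources used here do not state their order, settings, strand or treatment of reads matching several places. In the table the authors deposited are unnormalized read counts per gene, between 31360042 and 38844724 per library. Its other 12 columns of values by library, which hold scaled levels (FPKM and TPM), were not used. No pair of libraries agreed within sampling noise (chi-square per gene 7.98 or more, lowest between saline-sired library 5 and methylphenidate-sired library 2), so none was treated as a library deposited more than once.

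From the counts, genes were kept by filterByExpr, scaled by TMM and tested with the quasi-likelihood test of edgeR 4.0.16 (R 4.3.3), with Benjamini-Hochberg adjustment over 17874 genes, a threshold of 0.05 and no covariate. Each SE is the size of the log2 fold change over the root of F, and 95% intervals follow from SE and the total degrees of freedom. Levels per kilobase use exon unions of GENCODE vM21 (GRCm38), which may differ from the models the authors counted on. Identifiers of 45679 genes matched RefSeq GRCm38.p6, the source of coordinates and promoters. Near-identical transcripts were sought with blastn 2.17.0 (at least 95% identity over 200 nucleotides). DESeq2 1.42.0, limma-voom (limma 3.58.1), other scalings, no filter each library left out and, added after seeing the data, a term for libraries with Y-linked transcripts were the alternatives.

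The members and lists were chosen with earlier results of these data known. Named are all 10 members, in each pathway list the genes past the test or else the 2 non-members of lowest p, and the 5 genes most like the mean of the members. All other genes named were chosen after their values were seen. Some genes that this rule names are not reported here.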

Additional observations from a re-analysis of the deposited data

How the results depend on the processing

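In all 13 alternatives 0 of the 10 astrocyte genes and 0 genes of the 14 pathway lists passed the test. DESeq2 gave no adjusted p for some genes of the pathway lists. Over all genes, 4 passed in the edgeR fit (0 higher, 4 lower), and 1 to 9 with 1 library left out (0 to 5 higher, 1 to 4 lower). DESeq2 called 173 (135 higher, 38 lower), 0 passed without saline-sired libraries 3 and 4 (0 lower), and 2 passed with a term for libraries that hold Y-linked transcripts (0 higher, 2 lower). The cause was not tested. Without those libraries 1 saline-sired animal remains, assumed to vary like the others. Members at an unadjusted p under 0.05 were 0 in the edgeR fit, 1 (Gfap) by DESeq2 and with that term, and 0 to 1 with 1 library left out (Gfap, without saline-sired library 5).

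Of 130 values of the members under the alternatives, 27 had the other sign. Scaled by total counts alone, the log2 fold changes were -0.017 (Aqp4), -0.015 (Slc1a3), -0.0077 (Aldh1l1), -0.013 (Gjb6), -0.0055 (Glul) and -0.0019 (Sox9). Without saline-sired libraries 3 and 4 they were 0.072 (Gfap), -0.012 (Aqp4), -0.00087 (Slc1a2), 0.12 (Gja1) and 0.033 (S100b), and for the other genes -0.033 (Chrdl1), 0.024 (Slc38a3), 0.061 (Slc12a2), 0.34 (Vim) and 0.24 (Hspb1). With 1 library left out the ranges were -0.11 to 0.12 (Aqp4), -0.057 to 0.075 (Slc1a3), -0.053 to 0.098 (Aldh1l1), -0.11 to 0.095 (Gja1), -0.11 to 0.22 (Gjb6), -0.038 to 0.11 (Glul), -0.36 to 0.17 (S100b) and -0.077 to 0.10 (Sox9). No paired analysis was possible because the labels tie no animal of 1 group to an animal of the other. The column numbers are not those of the labels and give no pairing either. With 3 animals per group, the 95% intervals of the members allow ratios from 0.584 (lowest bound, Gfap) to 1.33 (highest bound, Gjb6). A difference inside a member's own interval is not excluded by these data.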

Other observations

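Among the 30 further astrocyte-enriched genes, which were looked at here for their spread after their values were seen, 3 with wide ranges over the 6 libraries stood near Gfap (1.88-fold) and S100b (1.99-fold). Itih3, which encodes a heavy chain that binds hyaluronan, was at 21.1, 26.8 and 13.4 CPM with saline sires and at 13.7, 19.4 and 21.3 with methylphenidate sires, a 1.99-fold range. Slc14a1, a urea transporter gene, was at 8.15, 11.8 and 6.35 CPM with saline sires and at 6.91, 9.20 and 8.82 with methylphenidate sires (1.86-fold). Ednrb, the endothelin B receptor gene, was at 57.6, 86.6 and 50.7 CPM and at 48.7, 68.6 and 62.8 (1.78-fold). Each was highest in saline-sired library 4, as S100b, Gfap and Gjb6 were, and the groups overlapped for each.

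The ratio of Gfap to Aldh1l1 per kilobase of exon, a pair also picked after the values were seen and so given without a test, was 2.41, 3.50 and 2.29 with saline sires and 2.06, 2.18 and 2.06 with methylphenidate sires. The groups did not overlap in this ratio, although they did for both genes. Saline-sired library 4 was the highest.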
